A study of Homo sapiens with 6 samples.

Results

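The interferon-inducible genes are 43 genes, given as a list of symbols, whose RNA was read on arrays of sorted COLO-320DM cells. Each gene was represented by the probe set that carried its symbol alone in the platform annotation and had the highest mean over all arrays, dim genes included. Of the 43 genes, 42 had such a probe set among 19775 genes on the array, with DDX58 found under its current symbol RIGI. STAT2 had no probe set of its own symbol in that annotation and was not analysed here. COLO-320DM is an established human colorectal cancer cell line, and the study sorted it by CD44, a hyaluronan receptor used as a marker of colorectal cancer stem cells. The CD44-positive cells (3 arrays) were set against the CD44-negative cells (3 arrays), and per the labels both were grown in dishes and given no treatment. Each group carried the replicate numbers 01, 02 and 03. All 6 arrays are of this line.

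Type I and type III interferons are secreted when a cell detects foreign nucleic acid, and they act on receptors coupled to the kinases JAK1 and TYK2. They lead to ISGF3, a complex that includes IRF9 and binds the interferon-stimulated response element (ISRE). Type II interferon acts mainly through the gamma-activated site (GAS). The genes so induced encode sensors of RNA and DNA, factors that block entry, translation or budding of viruses, and regulators that end the response. Many of them are also transcribed at a basal level without interferon, and in tumour cells this basal level can differ between clones and cultures.

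Values are log2 of the deposited RMA intensity, and differences are CD44-positive minus CD44-negative on that scale. Genes with a mean below 5.12, the 30th percentile over all genes, are called dim and were left out of the test, which covered 13842 genes and 27 of the members. Probe sets differ in affinity, so levels are compared between arrays for a gene and not between genes. CD44 itself averaged 7.70 ± 0.52 among CD44-positive and 5.23 ± 0.22 among CD44-negative arrays (SD, n = 3), with an adjusted p from limma of 0.00176 when the replicate number was a block and 0.106 otherwise. The arrays correlated at 0.991 to 0.997, and the 3 arrays a group limited the precision of every value. Of the markers of the line, MYC, KRT8, KRT18 and SYP lay above the dim limit, while EPCAM and CHGA lay below it. The labels do not say whether the arrays of a group stem from different cultures, and each p-value therefore reflects the variation among these 6 samples alone, part or all of which may be technical. In bulk RNA a smaller share of cells expressing a gene and less RNA per cell cannot be told apart. Over all tested genes the same-numbered arrays of both groups varied together, though among the members number 01 did so little. A blocked fit on that number (replicate block) is given beside the fit without it where it changes a call.

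The DNA before the start of the members is shown first, because ISRE-like and GAS-like sequences are the features through which interferon is known to act on these genes. The windows come from RefSeq (GRCh38.p14) and reach from 250 bases before to 50 bases after a gene start, with 44 windows for 34 of the 43 genes. The ISRE-like motif searched was GAAA, any 2 bases and GAAA again, and the GAS-like motif was TTC, any 3 bases and GAA, each on both strands. A window of 23 of the 34 members held the ISRE-like motif, against 4.38% of the 27305 genes with windows, and the GAS-like motif was found for 9 members, against 9.38% of genes. With a C required after the ISRE-like motif the count was 19 members, against 0.952% of genes. Counted once where windows overlap, the members' windows held 44 distinct ISRE-like sites, of which 8 overlapped another ISRE-like site and 5 a GAS-like site. The sequences printed are the 250 bases before the start, 5′ to 3′ on the strand of the gene, for the 4 members above the dim limit whose arrays did not overlap between the groups, for RSAD2 as the neighbour of CMPK2 and for HERC5, which differed between replicate numbers. Capitals mark ISRE-like or GAS-like matches. They lie at chr2:6865820-6866069 (minus strand) for CMPK2, the second of its 3 windows, at chr2:6877527-6877776 (plus strand) for RSAD2, the second of its 2 windows, at chr1:1013247-1013496 (plus) for ISG15, at chr5:132490774-132491023 (minus) for IRF1, at chr17:43006534-43006783 (plus) for IFI35 and at chr4:88456869-88457118 (plus) for HERC5.
CMPK2: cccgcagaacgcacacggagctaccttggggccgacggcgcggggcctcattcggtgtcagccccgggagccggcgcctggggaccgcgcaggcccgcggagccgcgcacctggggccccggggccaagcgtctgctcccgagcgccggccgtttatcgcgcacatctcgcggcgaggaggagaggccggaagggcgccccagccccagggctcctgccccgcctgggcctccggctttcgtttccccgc
RSAD2: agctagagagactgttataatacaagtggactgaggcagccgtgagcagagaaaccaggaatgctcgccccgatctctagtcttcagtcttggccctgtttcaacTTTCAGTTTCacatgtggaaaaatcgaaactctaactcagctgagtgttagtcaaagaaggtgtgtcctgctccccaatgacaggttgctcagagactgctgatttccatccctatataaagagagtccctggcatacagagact
ISG15: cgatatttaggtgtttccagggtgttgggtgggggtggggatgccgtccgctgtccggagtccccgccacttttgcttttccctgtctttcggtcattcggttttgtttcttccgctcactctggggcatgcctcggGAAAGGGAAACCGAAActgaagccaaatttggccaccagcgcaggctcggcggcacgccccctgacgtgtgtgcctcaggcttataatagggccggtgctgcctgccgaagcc
IRF1: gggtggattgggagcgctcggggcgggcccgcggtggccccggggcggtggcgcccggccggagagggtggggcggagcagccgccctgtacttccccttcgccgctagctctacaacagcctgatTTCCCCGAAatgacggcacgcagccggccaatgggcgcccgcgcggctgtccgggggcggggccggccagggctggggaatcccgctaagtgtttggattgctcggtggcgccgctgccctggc
IFI35: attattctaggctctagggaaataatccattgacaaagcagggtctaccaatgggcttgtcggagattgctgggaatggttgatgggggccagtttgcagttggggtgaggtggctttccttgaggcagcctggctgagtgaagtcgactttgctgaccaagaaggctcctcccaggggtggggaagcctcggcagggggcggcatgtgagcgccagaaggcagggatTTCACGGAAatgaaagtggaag
HERC5: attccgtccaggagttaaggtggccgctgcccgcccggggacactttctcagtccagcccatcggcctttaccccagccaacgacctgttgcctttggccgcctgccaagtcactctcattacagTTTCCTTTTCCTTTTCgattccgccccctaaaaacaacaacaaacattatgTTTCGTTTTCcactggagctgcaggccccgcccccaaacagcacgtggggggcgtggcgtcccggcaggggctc
In ISG15 the ISRE-like matches lay at positions -113 to -104 and -107 to -98 from the start and overlapped each other. IRF1 and IFI35 held a GAS-like match and no ISRE-like match in these windows. No window of CMPK2 held either motif, and the first window of RSAD2 held none. Both genes do hold a closer-spaced form there, gaaacgaaa or its reverse complement tttcgtttc, which was not searched for. The first window of RSAD2 and the second of CMPK2 overlap on opposite strands. Copies in that overlap are the same DNA and not separate elements of each gene. The closer-spaced form has a lone base between the GAAA repeats and stands near the end of the printed CMPK2 sequence. With another base between the repeats, gaaatgaaa stands near the end of the printed IFI35 sequence, partly within its GAS-like match. Motif matches are letters in a window and do not show that a factor binds there. Where there is no match, it says only that the letters searched are not in the window.

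**Figure D1:**
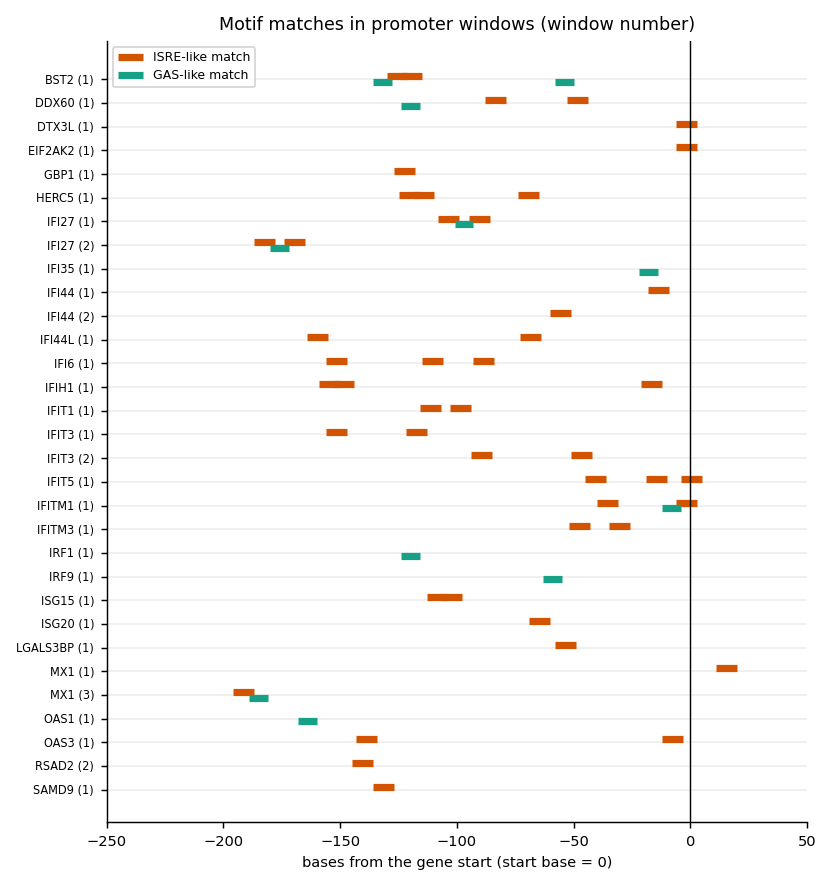
Positions of ISRE-like (orange) and GAS-like (green) matches in the promoter windows of the members that held a match. The horizontal axis is the distance from the gene start in bases, each line is a window (number in brackets), and most matches lie left of the start at 0.

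Over the 42 measured members, 30 had a positive and 12 a negative difference, with a median difference of 0.091, while over all 19775 genes 9823 were positive and the median was -0.00082. The median of the members was 0.082, 0.091 and 0.043 in pairs 01, 02 and 03. Among the 27 members above the dim limit 20 were positive, against 48.9% of all tested genes, and 7 negative, against 51.1%. Limma called none of the 27 without the replicate block (0% of all tested genes were called), with 4 members at an unadjusted p under 0.05, all with positive differences, against 1.24% of all tested genes higher and 0.73% lower. With the replicate block it called 1 member, CMPK2, as higher (0.0289% of tested genes were called higher) and none as lower (0.0289%), and 5 members were at an unadjusted p under 0.05 in the blocked fit, again all positive, against 4.24% of tested genes higher and 3.25% lower. In 4 of the 27, CMPK2, ISG15, IRF1 and IFI35, all CD44-positive values lay above all CD44-negative values, against 2.82% of tested genes, and no member showed the opposite, against 2.6%. The sign was positive in 3 of 3 pairs for 11 members, against 13.7% of tested genes, and negative for 1, IRF9, against 14.8%. The 11 and the 20 positive members include CMPK2 and IFIT2, whose CD44-negative means of 4.83 and 5.07 lay below the dim limit of 5.12. These 2 genes were tested only through the CD44-positive arrays where they were higher, so they add no support to the positive counts. CMPK2 is also the 1 member called with the block, and is among the 4 members without overlap. It is among the 4 and the 5 members at an unadjusted p under 0.05 as well, and adds no support to any of these counts. These counts describe members chosen with earlier results of these data known. The 23 members with an ISRE-like match had a median difference of 0.083 and the 10 measured members with windows but no such match one of 0.19, as a description without a test. Among those 10, CMPK2, OAS1, RIGI, IFI16 and XAF1 hold gaaacgaaa on a strand of a window, and IFI35 holds gaaatgaaa, of the same spacing. The split therefore goes by the exact letters searched and does not part members with and without a related element.

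**Figure D2:**
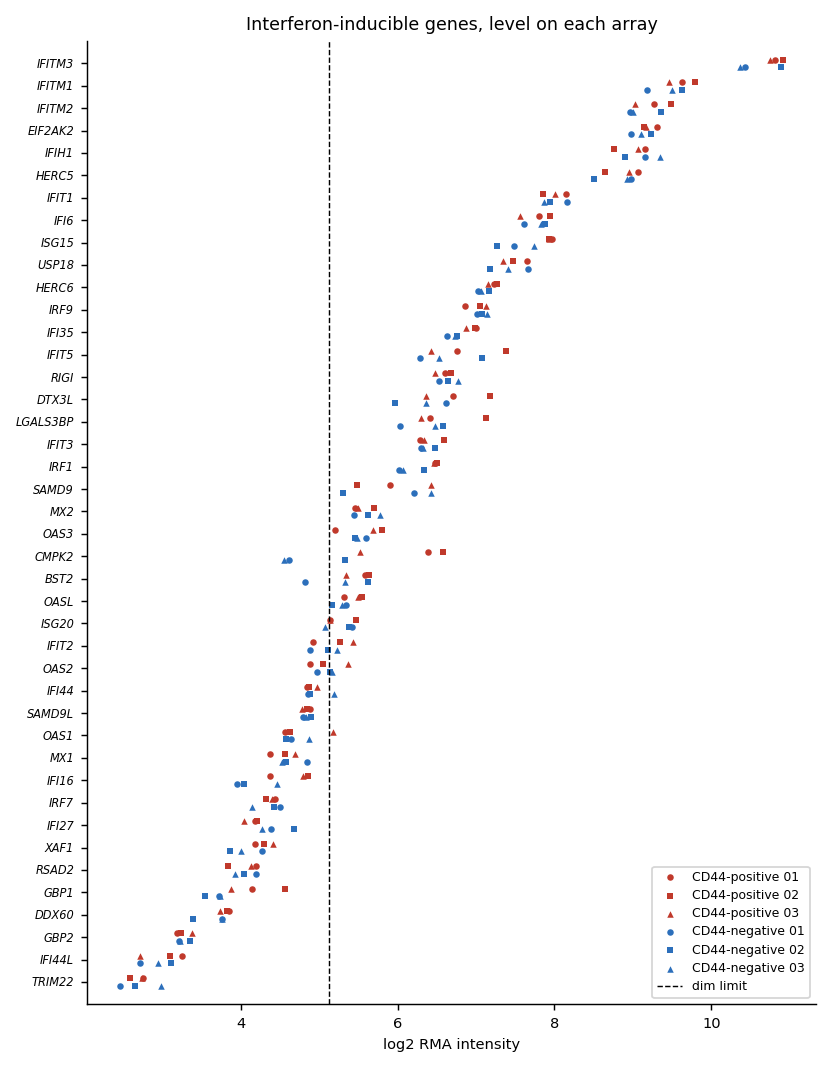
Level of each of the 42 measured members on each array (log2 RMA intensity), CD44-positive arrays in red and CD44-negative arrays in blue, with the dim limit of 5.12 as a dashed line. The order of genes is for display, and the 15 members below the line were not tested.

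**Figure D3:**
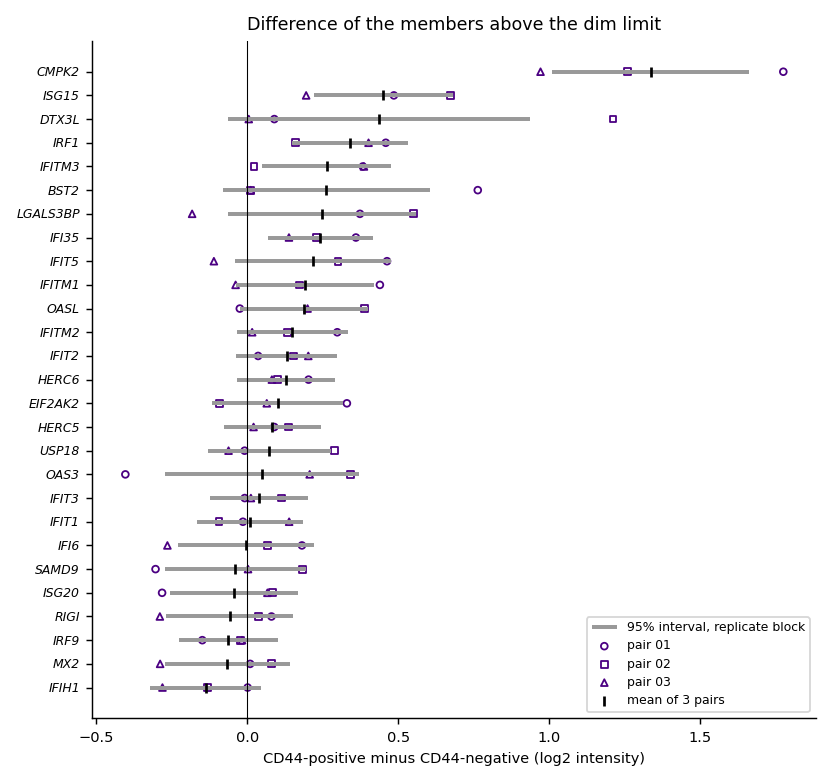
CD44-positive minus CD44-negative difference (log2) of the 27 members above the dim limit. Open symbols are the 3 pairs of same-numbered arrays, ticks their mean and grey bars the 95% interval from the fit with the replicate block. Only the bars of CMPK2, ISG15, IRF1, IFITM3 and IFI35 lie wholly above 0, and none lies below it.

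CMPK2 was the member that differed most. It encodes a mitochondrial kinase of pyrimidine nucleotides and neighbours, on chromosome 2, RSAD2, the gene of viperin, an enzyme that turns CTP into a chain terminator of viral RNA. The 2 genes lie on opposite strands and overlap by 751 bases. CMPK2 read 6.39, 6.58 and 5.52 in CD44-positive arrays 01, 02 and 03, against 4.61, 5.32 and 4.55 in CD44-negative arrays. Every CD44-positive array lay above every CD44-negative array, and array 02 was the highest in each group. The difference was 1.34 ± 0.14 (SE), or 2.52-fold, with an adjusted p of 0.0445 in the fit with the replicate block. Without the block the SE was 0.30 and the adjusted p 1.00. The CD44-negative mean of 4.83 lay below the dim limit, so CMPK2 entered the test only through the CD44-positive arrays where it was high, and the filter and the call rest on the same group. The size of the difference is therefore approximate, and the gene has a lone probe set. In the blocked fit the call ended when dim genes were tested as well (adjusted p = 0.0599). It also ended with quantile normalization (adjusted p = 0.0579) and with probe sets averaged per gene (adjusted p = 0.0559). Without pair 01, 02 or 03 the blocked fit still called CMPK2 (adjusted p = 0.000542 to 0.0204), with differences of 1.12, 1.37 and 1.52. Those fits used fewer arrays yet called more genes (10, 63 and 127, against 8). They therefore cannot show that the call is stable. Without the block, leaving out each array in turn gave no call of CMPK2, the smallest adjusted p being 0.377.

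RSAD2 was dim on every array, at 4.19, 3.84 and 4.13 in CD44-positive arrays and 4.19, 4.03 and 3.92 in CD44-negative arrays. The groups overlapped, with a difference of 0.0064, and its other probe set differed by 0.013. In the fit that included dim genes, with the replicate block, the 95% interval of the RSAD2 difference reached from -0.21 to 0.23 and that of CMPK2 from 1.00 to 1.67. The difference between the genes was not itself tested. RSAD2 lay at the 15.2 percentile of gene levels, where a change may go unread, so the intervals cannot show that the neighbours behaved differently.

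**Figure D4:**
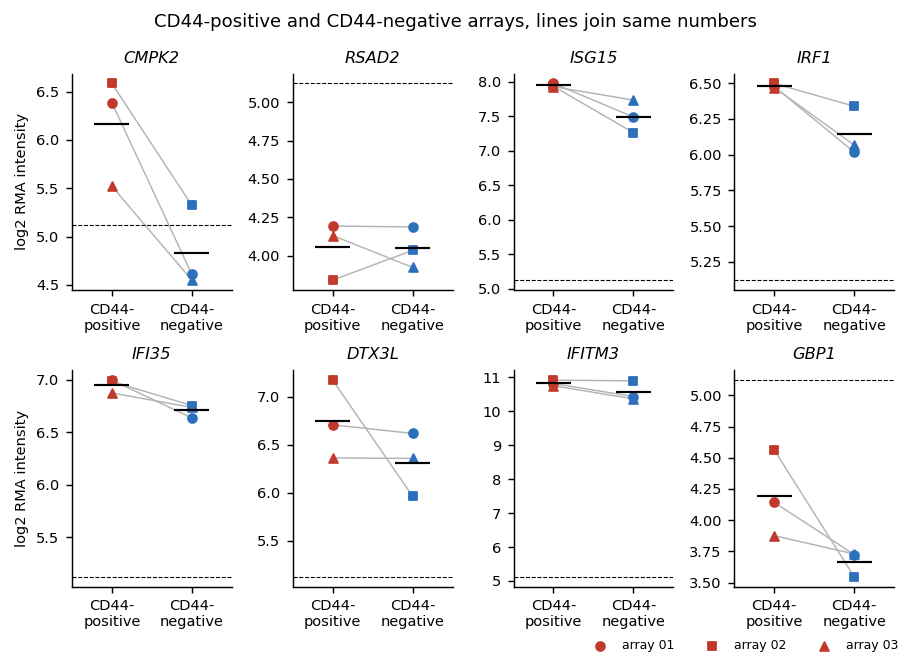
Level (log2 RMA intensity) on each array for 8 members, CD44-positive arrays left and CD44-negative arrays right in each panel. Symbols mark the replicate number, grey lines join same-numbered arrays, black bars are group means and the dashed line is the dim limit of 5.12. CMPK2, ISG15, IRF1, IFI35 and GBP1 do not overlap between the groups, while the line of DTX3L is steepest for array 02.

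The genes of ISG15 conjugation were all above the dim limit. ISG15 encodes a ubiquitin-like protein that is attached to newly made proteins and is also secreted. It stood at 7.97, 7.93 and 7.93 in CD44-positive arrays, against 7.49, 7.26 and 7.73 in CD44-negative arrays. The CD44-positive arrays lay close together and all above the CD44-negative ones. The difference of 0.45 ± 0.098 (SE with the replicate block) is 1.37-fold and did not pass over all genes, with an adjusted p of 0.256 with the block and 1.00 without it. Pair 03 held its smallest difference, 0.19, against 0.49 and 0.67 in pairs 01 and 02. Without pair 03 the blocked adjusted p was 0.0186, in a fit that called 127 genes. That was the only call of ISG15 among 22 alternative settings. HERC5, the main human ligase for ISG15, differed by 0.083 and USP18, the protease that removes ISG15 and dampens the type I receptor, by 0.072, and neither passed. HERC6, a relative of HERC5 that conjugates ISG15 in mouse, differed by 0.13, with 95% limits of -0.033 and 0.29 in the blocked fit. All 4 genes had a positive difference, with a median of 0.11.

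Among the transcription factors, IRF1 responds to both type I and type II interferon. It read 6.48, 6.50 and 6.47 in CD44-positive arrays, against 6.02, 6.34 and 6.07 in CD44-negative arrays. The CD44-positive values spanned a narrow range above all CD44-negative values. The difference was 0.34 ± 0.082 (SE with the replicate block), with an adjusted p of 0.318 with the block and 1.00 without it. The other IRF1 probe set, also above the dim limit, differed by -0.13, so the probe sets of this gene disagreed in sign. IRF9, the DNA-binding subunit of ISGF3, read 6.86, 7.05 and 7.13 in CD44-positive and 7.01, 7.07 and 7.14 in CD44-negative arrays. Its groups overlapped, and the difference of -0.063 had 95% limits of -0.23 and 0.10 in the blocked fit. IRF7, which amplifies type I interferon production, was dim, at means of 4.38 and 4.35 in CD44-positive and CD44-negative arrays.

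Of the sensors, RIGI and IFIH1, helicases that detect viral RNA in the cytosol, and EIF2AK2, a kinase that halts translation on binding duplex RNA, were above the dim limit. EIF2AK2 was at 9.31, 9.14 and 9.17 in CD44-positive arrays and 8.98, 9.24 and 9.10 in CD44-negative arrays. IFIH1 was at 9.16, 8.77 and 9.07 in CD44-positive arrays, against 9.16, 8.90 and 9.35 in CD44-negative arrays. RIGI was at 6.61, 6.68 and 6.48 in CD44-positive arrays, against 6.53, 6.64 and 6.77 in CD44-negative arrays. The groups overlapped in each of these genes, with differences of 0.10, -0.14 and -0.058, and none passed. The other IFIH1 probe sets, also above the dim limit, differed by 0.057 and -0.056. The main RIGI probe set carries the cross-hybridisation suffix, and the other RIGI probe sets differed by 0.28 and 0.019. IFI16, a sensor of DNA in nucleus and cytosol, was dim and differed by 0.52, at 4.37, 4.86 and 4.79 in CD44-positive arrays and 3.95, 4.03 and 4.46 in CD44-negative arrays. Its groups overlapped slightly, its difference was positive in 3 of 3 pairs, and its 3 probe sets differed by 0.52, 0.63 and 0.52. All 3 carry suffixes for shared or cross-hybridising transcripts, so they may not be separate readings of IFI16. In the fit that included dim genes the adjusted p of IFI16 was 0.294 with the replicate block. DDX60, a helicase linked to RIGI signalling, was dim and differed by 0.16. RSAD2, IFI16, GBP1, IFI27, IFIT1 and BST2 are given in detail outside the naming rule, chosen after their values were seen.

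The IFIT genes encode proteins that bind viral RNA and stand in a cluster on chromosome 10. IFIT1 had 8.15, 7.85 and 8.00 in CD44-positive arrays and 8.17, 7.95 and 7.87 in CD44-negative arrays. These arrays overlapped throughout, and the difference of 0.010 had 95% limits of -0.17 and 0.19 in the blocked fit. IFIT2, IFIT3 and IFIT5 differed by 0.13, 0.039 and 0.22. None of the 4 passed, with adjusted p values from 0.752 for IFIT5 to 0.990 for IFIT1 with the block.

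The IFITM genes, on chromosome 11, encode membrane proteins that hinder viral entry. IFITM3 was at 10.82, 10.92 and 10.75 in CD44-positive arrays, against 10.43, 10.89 and 10.36 in CD44-negative arrays. IFITM1 was at 9.62, 9.80 and 9.46 in CD44-positive arrays, against 9.18, 9.62 and 9.50 in CD44-negative arrays. IFITM2 was at 9.27, 9.49 and 9.02 in CD44-positive arrays, against 8.97, 9.36 and 9.01 in CD44-negative arrays. Array 02 was the highest in each group for all 3 genes, and the groups overlapped in each gene. The differences were 0.26, 0.19 and 0.15, with adjusted p values of 0.554, 0.752 and 0.760 in the blocked fit. With 1 array left out they ranged over 0.16 to 0.43, 0.066 to 0.28 and 0.033 to 0.27. Their probe sets carry the suffixes for shared or cross-hybridising transcripts and the genes are close paralogs, so the 3 may not be separate readings. BST2, the gene of tetherin, which holds budding virions at the cell surface, differed by 0.26, with pair values of 0.76, 0.010 and 0.011. The pair that carried it held CD44-negative array 01, at 4.82 against 5.62 and 5.33 in arrays 02 and 03 of that group.

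The OAS genes make oligoadenylates that activate RNase L, except for OASL, which lacks that activity. OAS3 and OASL lay just above the dim limit and differed by 0.048 and 0.19, and OAS1 and OAS2 were dim, with differences of 0.099 and 0.013. The MX GTPases trap viral nucleocapsids. MX2 was at 5.45, 5.70 and 5.49 in CD44-positive arrays and 5.44, 5.62 and 5.78 in CD44-negative arrays, and overlapped between the groups with a difference of -0.066. MX1 was dim and differed by -0.11. The guanylate-binding proteins respond above all to type II interferon. GBP1 was dim, at 4.14, 4.56 and 3.88 in CD44-positive arrays and 3.72, 3.55 and 3.73 in CD44-negative arrays. These groups did not overlap, and the difference was 0.53, with an adjusted p of 0.517 in the blocked fit that included dim genes. Of its 4 probe sets, all dim, 3 differed by 0.51 to 0.61 and the fourth by -0.14. GBP2 was dim and differed by 0.0041.

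IFI35, which binds the regulator NMI, was the fourth tested member without overlap. It read 6.99, 6.98 and 6.87 in CD44-positive arrays, against 6.63, 6.75 and 6.73 in CD44-negative arrays. All 3 CD44-positive values exceeded all CD44-negative values by a small margin. The difference of 0.24 ± 0.074 (SE with the replicate block) had an adjusted p of 0.479 with the block and 1.00 without it. DTX3L, a ubiquitin ligase that works with PARP9, was at 6.71, 7.17 and 6.36 in CD44-positive arrays and 6.62, 5.96 and 6.36 in CD44-negative arrays. Its groups overlapped, and its difference of 0.44 (adjusted p = 0.735 with the block) rested on pair 02, where it was 1.21, against 0.089 in pair 01 and 0.0049 in pair 03. ISG20, an RNA exonuclease, was at 5.14, 5.46 and 5.13 in CD44-positive arrays and 5.42, 5.38 and 5.07 in CD44-negative arrays. It overlapped between the groups, with a difference of -0.044. LGALS3BP, a secreted galectin-binding glycoprotein, differed by 0.25 and the mitochondrial protein gene IFI6 by -0.0052, neither passing. IFI27 was dim, at 4.18, 4.21 and 4.04 in CD44-positive arrays and 4.39, 4.67 and 4.26 in CD44-negative arrays. Its groups did not overlap, with a difference of -0.30 and an adjusted p of 0.504 in the blocked fit that included dim genes. The other dim effectors, IFI44, IFI44L, SAMD9L, TRIM22 and XAF1, differed by -0.082 to 0.25. The highest was XAF1, whose other probe sets differed by -0.15 and -0.089. Of the 15 dim members 10 had a positive and 5 a negative difference, and none was called in the fits that included dim genes.

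The replicate numbers differed for some members as well. In the fit with both terms, limma's F-test of the replicate number called 5 of the 27 members above the dim limit, CMPK2, IFIT5, IFIT2, HERC5 and SAMD9, against 10.3% of all tested genes. SAMD9, which represses translation and restricts poxviruses, read 5.90, 5.48 and 6.42 in CD44-positive arrays 01, 02 and 03 and 6.20, 5.30 and 6.42 in CD44-negative arrays. Array 02 was the lowest and array 03 the highest in each group, the means of the numbers spanned 1.04, and the difference between the sorts was -0.039 (adjusted p of the F-test 0.0113). HERC5 was also lowest in array 02 of each group, at 9.06, 8.65 and 8.95 in CD44-positive and 8.97, 8.51 and 8.93 in CD44-negative arrays (adjusted p of the F-test 0.0345). IFIT5 was highest in array 02 of each group, with 6.75, 7.38 and 6.42 in CD44-positive and 6.29, 7.08 and 6.53 in CD44-negative arrays (adjusted p of the F-test 0.0260). IFIT2 was lowest in array 01 of each group, at 4.91, 5.26 and 5.43 in CD44-positive and 4.88, 5.11 and 5.23 in CD44-negative arrays (adjusted p of the F-test 0.0434). In CMPK2 the means of the numbers were 5.50, 5.95 and 5.04 (adjusted p of the F-test 0.0375), a span smaller than its difference between the sorts. Number 02 had the highest mean in 17 of the 27 members, against 30.8% of all tested genes, and had the lowest in 6. When dim genes were tested as well, 3.77% of all genes were called, IFIT5 and SAMD9 kept the call and CMPK2, HERC5 and IFIT2 lost it. With probe sets averaged per gene 4 kept it, and IFIT2 fell under the dim limit and was not tested. What a number stands for is not given in the labels.

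**Figure D5:**
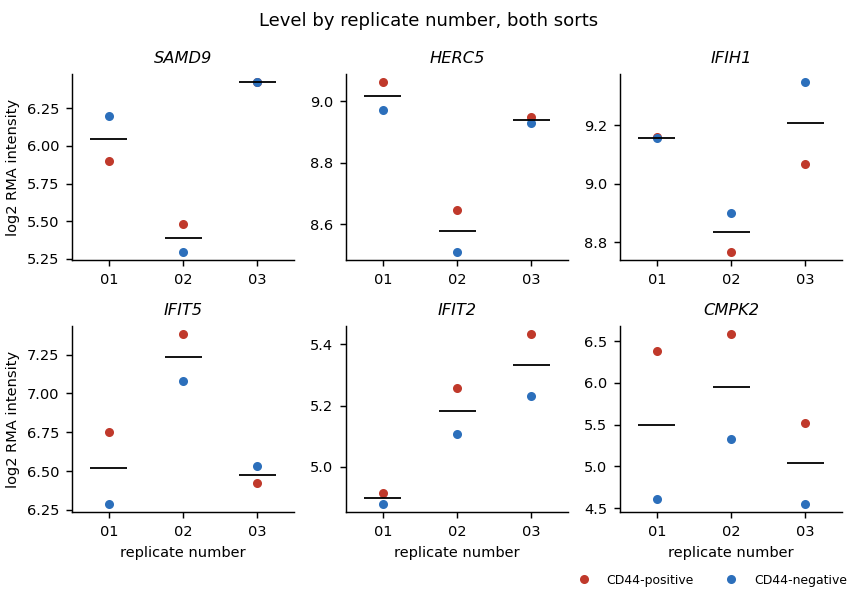
Level (log2 RMA intensity) by replicate number for the 5 members called by the F-test and for IFIH1, which was not called (adjusted p = 0.0705). Red points are CD44-positive and blue points CD44-negative arrays, and black bars are the mean of both. SAMD9, HERC5 and IFIH1 are lowest in number 02, while IFIT5 and CMPK2 are highest there.

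Members with several probe sets gave a check on single readings. Of the 42 members 21 had more than 1 probe set, and in 13 of these all probe sets differed in the same direction, while 8 had both signs. The main probe set carried the _s_at or _x_at suffix in 14 members. With only probe sets free of these suffixes the median difference was 0.029 over 32 members, against 0.091 over all 42. ISG15, IFI35, IFIT5 and the IFITM genes have no probe set free of them, and neither do the dim IFI16, IRF7, DDX60 and TRIM22. The differences of these genes therefore rest on probe sets that may read related transcripts.

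The genes upstream of the response were read from lists set with earlier results known. Of 18 measured interferon genes 17 were dim, the exception being IFNA17 with a difference of -0.074. The 6 receptor genes were above the dim limit, 3 with a positive and 3 with a negative difference, and none passed. IFNAR1 and IFNAR2, the type I receptor, differed by 0.072 and 0.080, and IFNGR1 and IFNGR2, the type II receptor, by -0.0059 and -0.027. JAK1, the kinase shared by all interferon receptors, was at 9.30, 8.98 and 8.98 in CD44-positive arrays, against 8.85, 8.67 and 8.85 in CD44-negative arrays. It did not overlap between the groups, and its difference of 0.30 had an adjusted p of 0.398 with the block. TYK2 differed by -0.025. Of 14 tested signalling and sensor genes 10 had a positive difference, of 12 negative regulators 6, and of 43 further interferon-inducible genes 25, with medians of 0.024, -0.0015 and 0.010, against -0.0025 over all tested genes. No gene of these lists above the dim limit passed with or without the block. The last 2 lists share ADAR.

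Markers of other cells were read beside the members. Of the 6 measured leukocyte markers PTPRC, CD3E and ITGAM lay above the dim limit and CD14, FCER1G and LYZ were dim, and their summed intensity was 8.29 to 8.34 in CD44-positive and 8.30 to 8.45 in CD44-negative arrays (log2). Of the plasmacytoid dendritic cell markers CLEC4C and GZMB were dim, and the summed intensity, most of it TCF4, was 11.63 to 11.91 in CD44-positive and 11.62 to 11.74 in CD44-negative arrays. The fibroblast markers summed to 10.53 to 11.84 in CD44-positive and 10.19 to 11.16 in CD44-negative arrays. Of the 6 fibroblast markers above the dim limit, 3 had a positive and 3 a negative difference, with a median of 0.0078. COL3A1, which also differed between replicate numbers, COL1A2 and THY1 differed by 0.78, 0.31 and 0.052, and COL1A1, PDGFRB and DCN by -0.23, -0.13 and -0.036, none passing with or without the block. The dim LUM differed by 2.02 (adjusted p = 0.173 with the block and dim genes included). The endothelial markers summed to 7.00 to 7.19 in CD44-positive and 7.06 to 7.12 in CD44-negative arrays. In RNA quality, the 3′ minus 5′ difference of GAPDH was -0.081 ± 0.031 in CD44-positive and -0.071 ± 0.010 in CD44-negative arrays (log2, SD, n = 3). The part of these in the differences of the members was not tested.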

How the data were processed

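Total RNA of sorted COLO-320DM cells was read on an Affymetrix array with biotin-labelled cRNA, per the labels. The values deposited by the authors are linear intensities made with RMA, per the submitters' processing notes, and were turned to log2 here without a pseudocount. RMA brings the arrays to a common distribution, so a shift common to all genes cannot be seen. Of 54675 probe sets, 41091 had 1 gene symbol in the platform annotation, 1801 several and 11721 none, and 62 were controls. Current symbols came from RefSeq for 41037 probe sets. A gene was read from its probe set with the highest mean, which gave 19775 genes, and genes with a mean below the 30th percentile were not tested. CD44-positive was compared with CD44-negative by limma 3.58.1 (R 4.3.3) with Benjamini-Hochberg adjustment over 13842 genes at 0.05, without and with the replicate number as a block. The F-test of the replicate number came from the blocked fit. The fits were tested on simulated data with independent noise of the blocked fit's residual SD. There the fit without the block recovered 86.6% and the blocked fit 92.5% of changes of 1 (log2). The replicate-number effects estimated from the real arrays were not put in. The simulation therefore does not show how often the fits would find a change in these data. Over all tested genes, same-numbered arrays of the 2 groups had correlated deviations from their group means (0.465, 0.689 and 0.626), against -0.496 to -0.107 for other pairs. Deviations from a group mean cancel within the group, so positive same-numbered values force the other pairs to be negative on average. The contrast with the other pairs is therefore no separate evidence of pairing. In the blocked fit, arrays were treated as paired by number on the same-numbered values alone. Over the tested members alone the same-numbered values were 0.126, 0.641 and 0.600. Other pairs reached from -0.644 to 0.397, the highest for CD44-positive array 03 with CD44-negative array 01. The members thus bear out the pairing for numbers 02 and 03 but not for 01. This pairing comes from the data, since the labels give only the numbers. Members were named with every array's value if called in either fit, if above the dim limit without overlap, if called between replicate numbers, or if among the 5 highest or 5 lowest differences of tested members or the 5 highest mean levels. The members and lists were chosen with earlier results of these data known. Figures and tables used Python 3.11.15 with pandas 2.3.3, numpy 2.4.6 and matplotlib 3.10.9. Alternatives covered the dim filter, the choice of probe set, the variance model, median centring, quantile normalization, the block and leaving out each array.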

Additional observations from a re-analysis of the deposited data

How the results depend on the processing

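No member was called without the replicate block under any alternative run. The replicate block gave 1 called member, CMPK2, among 8 called genes. It was also 1 with only probe sets free of suffixes (20 genes), a variance trend (78) and median centring (18, chosen after seeing the data). The count was 1 to 2 without pair 01, 02 or 03 (10, 63 and 127 genes), ISG15 being the second without pair 03. The fits without a pair called more genes from fewer arrays, so they cannot show that a call is stable. With the block and the 50th percentile as limit, CMPK2 was not tested and no member was called among 16 genes. The block changed no other call among the members. The median difference of 0.091 became 0.029 with only probe sets free of suffixes, with or without the block. It was 0.054 to 0.11 when 1 array was left out (0.054 without CD44-negative array 02), and 0.12 in the blocked fit without pair 03. The test between replicate numbers called 2 of 42 members (3.77% of all genes) in place of 5 of 27 (10.3%) when dim genes were included. The difference of RIGI was 0.080 with the mean of its probe sets and 0.019 with only those free of suffixes, with or without the block. Leaving out 1 array turned the sign of 7 of the 18 differences so tried, none called, which spanned -0.064 to 0.20 for HERC5, -0.12 to 0.012 for IRF9, -0.15 to 0.021 for ISG20, -0.048 to 0.44 for IFIT5, -0.38 to 0.19 for SAMD9, -0.15 to 0.016 for MX2 and -0.12 to 0.0045 for RIGI. Without a sign change it moved IFIT2 over 0.015 to 0.27, IFIH1 over -0.26 to -0.022 and EIF2AK2 over 0.036 to 0.17. In the blocked fit without a pair, EIF2AK2 reached -0.014, ISG20 0.074, SAMD9 0.093, MX2 0.045 and RIGI 0.058. The causes were not tested.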

Other observations

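Some interferon-inducible genes outside the 43 are described here because their values stood out, so they were chosen after their values were seen. TNFSF10, the gene of the death ligand TRAIL, lay just under the dim limit. It was at 5.77, 5.94 and 5.63 in CD44-positive arrays, against 4.14, 4.48 and 4.56 in CD44-negative arrays. The groups did not overlap, and in limma's fit with dim genes included the difference of 1.39 had an adjusted p of 0.0371 without and 0.0206 with the replicate block. PARP9, the partner of DTX3L, was at 6.32, 6.68 and 6.25 in CD44-positive arrays and 6.06, 5.81 and 6.04 in CD44-negative arrays. Its groups did not overlap, and its difference of 0.45 had an adjusted p of 0.438 with the block. PARP14, a mono-ADP-ribosyltransferase, was at 5.36, 6.65 and 5.64 in CD44-positive arrays and 4.79, 5.67 and 4.90 in CD44-negative arrays. Its groups overlapped, with array 02 the highest in each. Its difference of 0.77 had an adjusted p of 0.0858 in limma's blocked fit that included dim genes. On the other side, BATF2, a transcription factor, was at 5.26, 5.24 and 5.26 in CD44-positive arrays and 5.52, 5.63 and 5.34 in CD44-negative arrays. Its groups did not overlap, and its difference of -0.24 had an adjusted p of 0.522 with the block. TRIM5, which restricts retroviral capsids, differed by -0.46 with overlap between the groups (adjusted p = 0.720 with the block). Of the 43 further genes above the dim limit, 3 did not overlap with a positive difference and 2 with a negative one, against 2.82% and 2.6% of tested genes.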
